A study of Mus musculus with 6 samples.

Results

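The genes described here encode the machinery of the early secretory pathway, from the targeting of nascent proteins to the endoplasmic reticulum (ER) to vesicle traffic between ER and Golgi. The rule that chose them uses gene symbols: the signal recognition particle (Srp), the Sec61 translocon and the other numbered Sec genes, the translocon-associated protein complex (Ssr), signal peptidase (Spcs), the p24 cargo receptors (Tmed), the protein disulfide isomerases (Pdia), the KDEL receptors (Kdelr), the COPI coat (Copa, Copb, Copg, Copz), the ER chaperones Hspa5, Hsp90b1, Canx and Calr, and the stress factors Xbp1, Atf6 and Ddit3. This gave 77 of the 24054 genes in the tables. Of these, 71 were assigned to a role in the pathway from their symbols. The other 6 share only the symbol pattern: Sec1 encodes a fucosyltransferase, and Sec14l1 to Sec14l5 encode lipid-binding proteins of the Sec14 family. Their values are given separately at the end.

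The study followed mouse embryonic stem cells (ESCs) on their way to endoderm by RNA-seq of sorted cells. All samples came from 1 double knock-in ESC line, heterozygous for a Foxa2-Venus fusion and homozygous for a Sox17-Cherry fusion, which report 2 transcription factors of the endoderm. The d0 population held undifferentiated ESCs negative for both reporters on day 0. The d3F population held mesendoderm cells sorted as Venus-positive and Cherry-negative on day 3 of treatment with Wnt3a at 1 ng/ml and Activin A at 10 ng/ml, and the d5FS population held endoderm cells positive for both reporters on day 5 of the same treatment. Before differentiation the line was freed of feeder fibroblasts and grown on gelatine. Each population had 2 biological replicates, 6 samples in all.

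Secreted and membrane proteins enter the ER cotranslationally: the signal recognition particle stops translation at the signal peptide and docks the ribosome at the Sec61 channel, signal peptidase removes the signal, and chaperones and disulfide isomerases fold the chain. Folded cargo leaves in COPII vesicles, while COPI vesicles carry escaped ER residents back from the Golgi, which KDEL receptors recognise by their carboxy-terminal retrieval signal. The unfolded protein response adjusts the ER to its load through the sensors Ire1, Perk and Atf6, with Xbp1 and Ddit3 (Chop) among its downstream factors. Some forms of endoderm, visceral and parietal endoderm among them, are known for secreted products such as serum proteins and basement membrane.

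Expected counts summed to between 16457729 and 22768686 per sample. Levels are given as CPM, counts relative to the library total, scaled by trimmed mean of M-values (TMM) factors, in the order d0 replicates 1 and 2, d3F replicates 1 and 2, d5FS replicates 1 and 2. A count of 3 corresponded to 0.132 to 0.182 CPM. Because these are bulk samples, fewer cells of a type and less RNA per cell cannot be told apart. The pluripotency markers were lower in d5FS than in d0 (7 of 8 called), and all 8 definitive endoderm markers, which include the sorted genes Foxa2 and Sox17, were higher. Markers of other cell types did not all move alike. Of 3 tested blood and vessel markers 1 was called higher and 1 lower in d5FS, and of 4 tested neuroectoderm markers 0 and 1. Other lists moved along the same axis as the endoderm markers. Of 8 markers of visceral or yolk sac endoderm 6 were called higher in d5FS, and their summed level ran from 3.77 to 3.94 CPM in d0 and from 95.4 to 172 CPM in d5FS. Of 7 parietal endoderm markers 5 were called higher, with sums of 377 to 417 CPM in d0 and 1520 to 1660 CPM in d5FS. Of 7 feeder fibroblast markers 4 were called higher, all of them genes of extracellular matrix (Col1a1, Col1a2, Col3a1, Postn), with sums of 9.64 to 14.6 CPM in d0 and 195 to 232 CPM in d5FS. Their increases were 4.70-fold for Col1a1, 66.6-fold for Col1a2, 17.7-fold for Col3a1 and 39.4-fold for Postn. The other 3 of the list were Dcn at 0.397 and 0.745 CPM in d5FS, Lum at 0 and 0, and Thy1 at 1.02 and 0.458. The part of visceral endoderm, parietal endoderm and feeder fibroblast cells in the results below was not tested.

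Of the 77 genes, 73 passed the filter on low counts and were tested among 14539 genes. Sec16b, Sec14l3, Tmed6 and Tmed11 did not pass, with no sample above 0.567 CPM. From d0 to d5FS, 11 of the 73 tested members were called higher and 2 lower (edgeR's quasi-likelihood test, Benjamini-Hochberg adjusted p under 0.05 and a fold change above 2), beside 12.4% and 10.4% of all genes tested. Without the genes matched only by name, 10 of 68 tested pathway genes were called higher and 0 lower. An unadjusted p under 0.05 was found for 21 of the 68, and shares of all genes at an unadjusted p are not given here. The DESeq2 Wald test called 11 of the 68, all higher, beside 4019 of the 14539 genes in either direction. The 15.1% of members that edgeR called higher is near its share of all genes, and the 2.74% called lower is below it. The genes called were the KDEL receptors Kdelr1 and Kdelr3, the p24 protein Tmed3, the signal peptidase subunit Spcs1 and the Sec22 family gene Sec22a. Also called were the disulfide isomerases Pdia2 and Pdia5, the coat subunits Copz2 and Sec31b and the stress factor Ddit3. Among those matched by name only, Sec14l2, Sec14l1 and Sec1 were called.

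Between d0 and d5FS the median log2 fold change was 0.34 over the 73 members and 0.02 over all genes tested. With plain library totals in place of TMM, the median of all genes moved to 0.13 and that of the members to 0.45. The samples of d5FS lay above those of d0 without overlap for 28 members and below for 12, beside 32.2% and 30.5% of all genes. The summed level of all 77 genes differed little between populations, with 8257 and 7890 CPM in d0, 8858 and 8826 in d3F, then 9011 and 8176 in d5FS. One of the d5FS samples thus lay between both d0 samples.

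**Figure D1:**
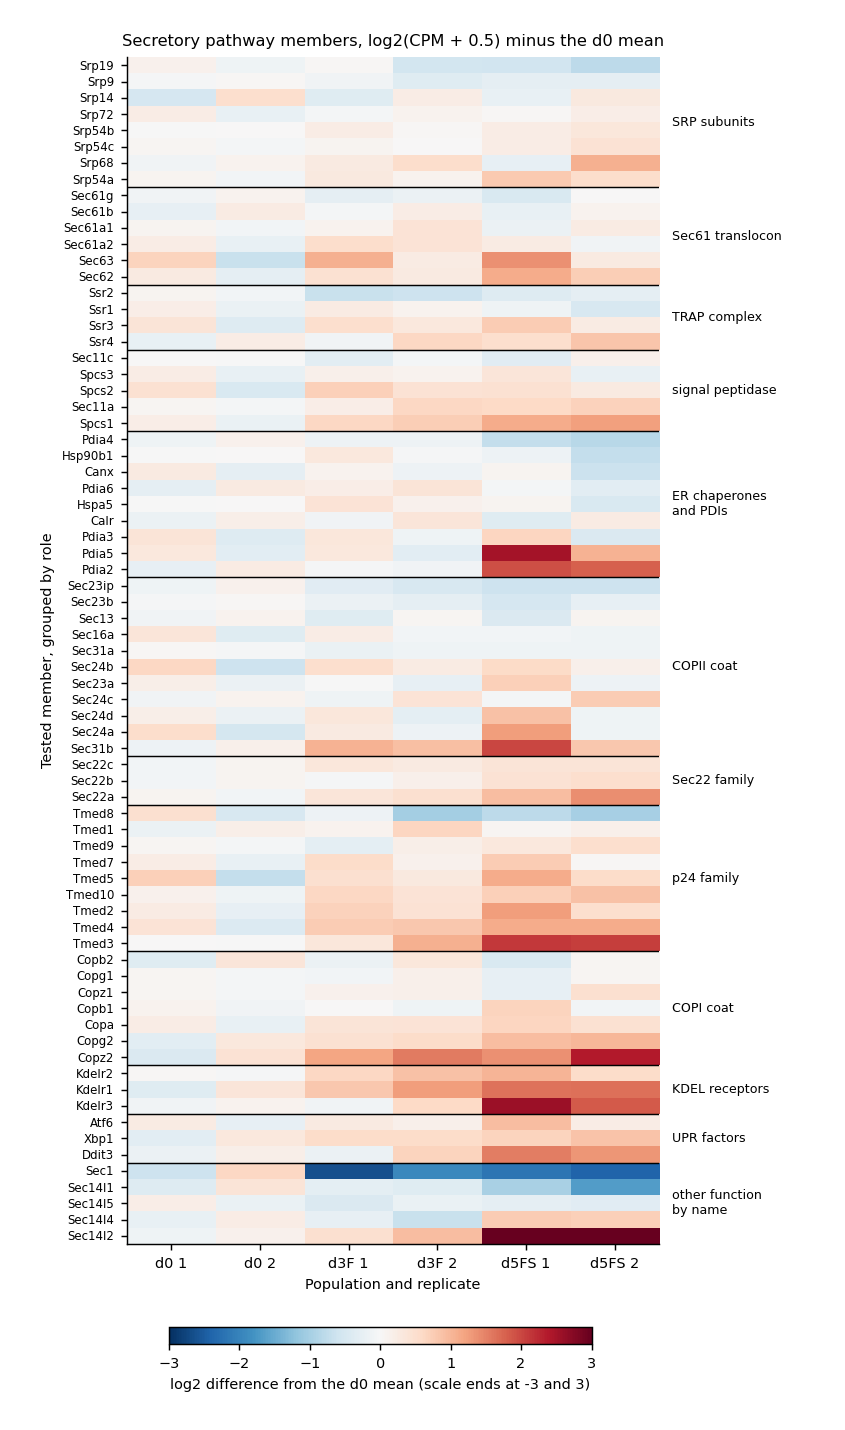
Level of each of the 73 tested members (rows, grouped by role) in each sample (columns), as log2(CPM + 0.5) minus the mean of the 2 d0 samples, with red for higher and blue for lower. Strong red in both d5FS samples was limited to single genes such as Kdelr3, Tmed3, Pdia2 and Sec14l2, and most chaperone, translocon and COPII rows stayed pale.

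Members were also grouped by level. The classes average both replicates, which could differ in TPM at equal CPM. Hspa5, for example, had 186 and 87.3 TPM in d0 at 666 and 667 CPM. It had 252 and 124 TPM in d3F and 139 and 61.0 TPM in d5FS. For such genes replicate 1 weighs more in the class. Averaged over the 6 samples, 5 members had at least 100 TPM (transcripts relative to all transcripts, a measure per transcript length), and 0 of them were called, beside 16.3% of all genes in that range. Of 22 members at 20 to 100 TPM only Spcs1 was called, beside 22.7% of all genes. The other 12 calls fell among 46 members under 20 TPM, where 23.0% of all genes were called. The median log2 fold change was -0.16, 0.12 and 0.46 in these 3 classes, and -0.26, -0.34 and 0.08 for all genes.

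**Figure D2:**
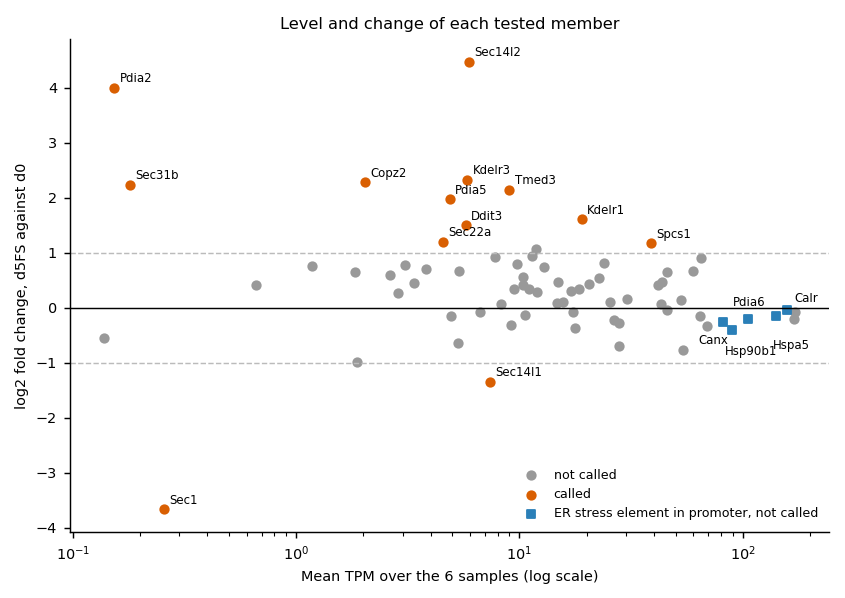
Mean TPM over the 6 samples (log scale) against the log2 fold change from d0 to d5FS for each tested member. Orange points were called and grey points were not. Blue squares, none of them called, are the 5 members with an ER stress element in the promoter. Of all genes tested, 12.4% were called higher and 10.4% lower. Dashed lines mark a fold change of 2 in either direction.

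The 3 KDEL receptors, which return ER residents from the Golgi, had the highest median change of any role, 1.61 on the log2 scale (1.75 with plain library totals). Kdelr1 measured 21.5 and 35.9 CPM in d0, 49.1 and 67.3 in d3F, followed by 87.0 and 88.1 in d5FS. Every d3F sample was above every d0 sample, and both d5FS samples were above those. From d0 to d5FS Kdelr1 rose 3.05-fold (log2 fold change 1.61, SE 0.34, adjusted p = 0.0147, edgeR). Kdelr3 measured 6.31 and 7.48 CPM in d0, 6.37 and 10.7 in d3F, then 43.4 and 25.8 in d5FS. Its d0 and d3F samples overlapped, and the increase lay between d3F and d5FS. From d0 to d5FS it rose 5.01-fold (log2 fold change 2.33, SE 0.42, adjusted p = 0.0082, edgeR). Kdelr2, at 58.1 and 56.1 CPM in d0, 88.1 and 106 in d3F, followed by 117 and 83.2 in d5FS, was above its d0 level in all 4 differentiated samples, but its log2 fold change of 0.81 (95% interval 0.14 to 1.48) gave an adjusted p of 0.0779 (edgeR) and was not called.

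Per transcript length, Kdelr2 was the main receptor in ESCs. It took 62.1% and 50.6% of the summed TPM of the 3 receptors in d0, 55.8% and 51.9% in d3F, then 41.1% and 36.5% in d5FS. Kdelr3 took 9.20% and 9.13% in d0, 5.49% and 7.12% in d3F, followed by 20.7% and 15.3% in d5FS. Its share in both d5FS samples lay above all 4 other samples, whereas the share of Kdelr2 there lay below all 4. The share of Kdelr1 ran from 28.7% to 48.1% with overlap between populations. The promoter of Kdelr3 holds the core of the unfolded protein response element, the XBP1 and ATF6 binding motif TGACGTGG searched on both strands, which was found in 0.676% of all 32851 promoter windows (250 bases before to 50 after each start) and in those of 6 of the 65 members in the table (Copb1, Copb2, Kdelr3, Sec16b, Sec23a, Sec24d). Of these, only Kdelr3 was called among the 5 tested, beside 12.4% of all genes called higher and 10.4% called lower. The stretch of its window around the match is shown because Kdelr3 is the called member that holds the motif. Capitals mark the match, here on the opposite strand, which begins 30 bases before the start site. The sequence is from RefSeq on GRCm38.p6:
Kdelr3, + strand, chr15:79516363-79516400: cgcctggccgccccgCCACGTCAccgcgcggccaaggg
A match of these letters is a description of the sequence and not evidence of binding.

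**Figure D3:**
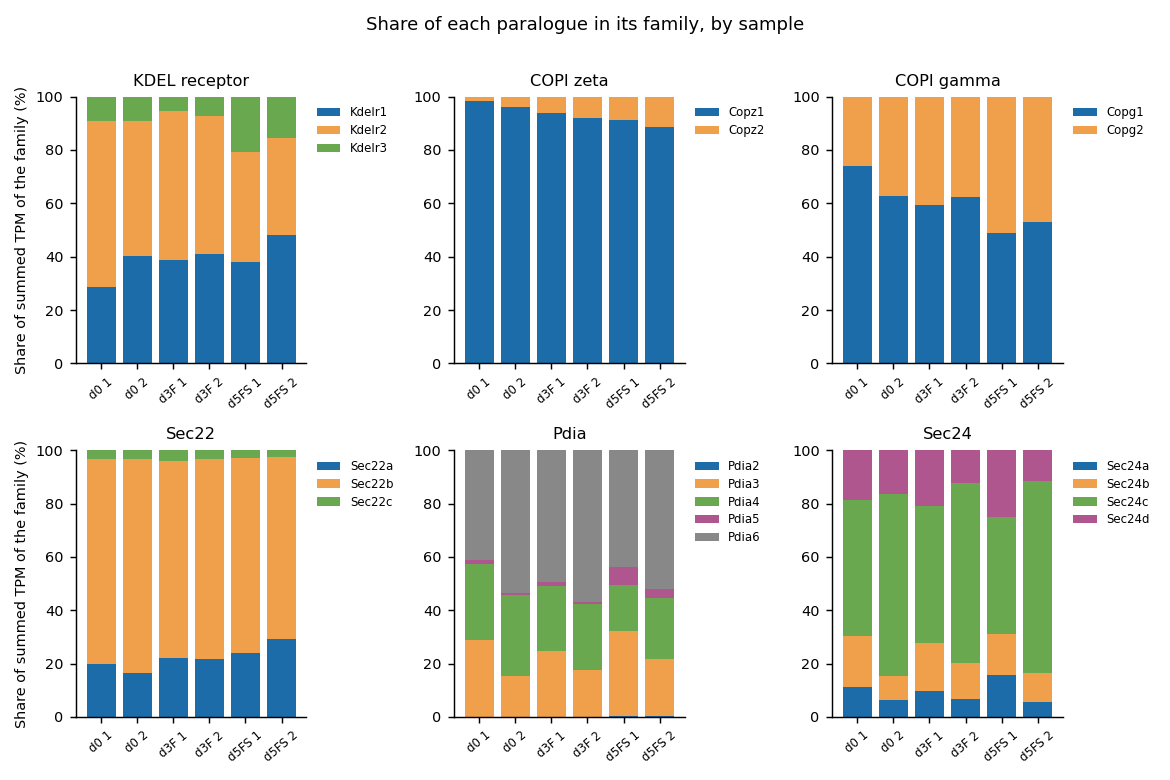
Share of each paralogue in the summed TPM of its family, for each of the 6 samples. The Kdelr3 segment was larger in both d5FS samples (20.7% and 15.3%) than in the other samples, and the Copg2 and Copz2 segments were also largest in d5FS.

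The p24 proteins sort cargo into vesicles in both directions between ER and Golgi. Of the 9 Tmed genes tested, which were grouped as p24 proteins by symbol, 1 was called from d0 to d5FS. Of all genes tested, 12.4% were called higher and 10.4% lower. A log2 fold change above 0 was found for 8 of the 9, beside 50.6% of all genes. The median over the 9 was 0.70. Tmed3 measured 10.1 and 10.0 CPM in d0, 12.9 and 21.5 in d3F, then 45.1 and 43.8 in d5FS. The populations did not overlap, and the step to d5FS was the larger. Tmed3 rose 4.42-fold from d0 to d5FS (log2 fold change 2.14, SE 0.35, adjusted p = 0.00582, edgeR), and it was called in each of the 6 fits that left out 1 sample. Tmed4 had a log2 fold change of 1.07 (95% interval 0.28 to 1.86, adjusted p = 0.0549, edgeR) and was not called, although the DESeq2 Wald test and the fit with the replicate number as a block (adjusted p = 0.0219, edgeR) called it. Tmed10, a core p24 subunit, measured 55.0 and 46.2 CPM in d0, 77.8 and 67.7 in d3F, followed by 82.6 and 92.8 in d5FS. These populations did not overlap either, yet the log2 fold change of 0.79 missed the threshold (adjusted p = 0.0689, edgeR). Tmed2, the most abundant p24 gene per transcript length, had 0.91 (adjusted p = 0.0949, edgeR). Tmed8 lay at the other end with -0.98 (95% interval -1.98 to 0.01, adjusted p = 0.131, edgeR).

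The 7 COPI coat genes had a median of 0.34, and 1 was called, beside 12.4% of all genes called higher and 10.4% called lower. Copz2, the minor zeta subunit, measured 0.701 and 1.69 CPM in d0, 3.21 and 4.29 in d3F, then 3.69 and 7.90 in d5FS. All 4 differentiated samples were above d0, while d3F and d5FS overlapped. Copz2 rose 4.86-fold from d0 to d5FS (log2 fold change 2.28, SE 0.62, adjusted p = 0.0327, edgeR). The log2 value was 3.04 without d0 replicate 2 and 1.64 without d5FS replicate 2, and the call was kept in 1 of 6 fits without 1 sample. Copz1, its abundant paralogue, had 0.16 (95% interval -0.55 to 0.88), and the share of Copz2 in their summed TPM was 1.5% and 3.80% in d0, 6.21% and 7.87% in d3F, followed by 8.88% and 11.2% in d5FS. Copg2 showed a like order among gamma subunits, with 26.0% and 37.4% of the pair in d0 and 51.0% and 47.1% in d5FS, and its log2 fold change of 0.94 gave an adjusted p of 0.0577 (edgeR). Exons of Copg2 share 17.8% of their bases with Mest on the opposite strand, a gene that rose itself (log2 fold change 2.497), and the library kit kept no strand, so reads there cannot be told apart. Copb2 was the lowest of the coat at -0.22 (95% interval -1.05 to 0.62).

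In the COPII coat, which carries cargo out of the ER, 1 of 11 tested genes was called from d0 to d5FS. Among all genes tested, 12.4% were called higher and 10.4% lower. Sec31b, a rare form of the outer coat, measured 0.395 and 0.615 CPM in d0, 1.54 and 1.36 in d3F, then 3.52 and 1.26 in d5FS. All differentiated samples lay above d0, with the 2 d5FS samples on both sides of d3F. From d0 to d5FS its log2 fold change was 2.24 (SE 0.69, adjusted p = 0.0479, edgeR), and the call was lost in every fit that left out 1 sample (1.31 without d5FS replicate 1). Even in d5FS it made up only 4.05% and 1.5% of the summed TPM with Sec31a. Sec31a itself had -0.14 (95% interval -0.73 to 0.45), with 89.3 and 89.2 CPM in d5FS against 101 and 95.01 in d0. The inner coat genes stayed below the threshold, from Sec23b at -0.38 to Sec24a at 0.65. Sec23ip, a Sec23 partner, was the lowest of the group at -0.64 (95% interval -1.27 to -0.003, adjusted p = 0.127, edgeR). Of the Sec24 paralogues, which pick cargo, Sec24c took 51.1% and 67.9% of their TPM in d0 and 43.7% and 72.1% in d5FS, so that the populations overlapped.

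Of the 3 genes of the Sec22 family, Sec22a was called, beside 12.4% of all genes called higher and 10.4% called lower. It measured 26.7 and 23.9 CPM in d0, 32.4 and 35.4 in d3F, followed by 48.8 and 67.5 in d5FS. The populations did not overlap, and Sec22a rose 2.30-fold from d0 to d5FS (log2 fold change 1.20, SE 0.30, adjusted p = 0.0261, edgeR). The call was lost in each of the 6 fits without 1 sample, with adjusted p-values of 0.0554 to 0.113 (edgeR). Sec22b, the most abundant of the 3, had 0.47 and Sec22c had 0.41, the lowest.

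**Figure D4:**
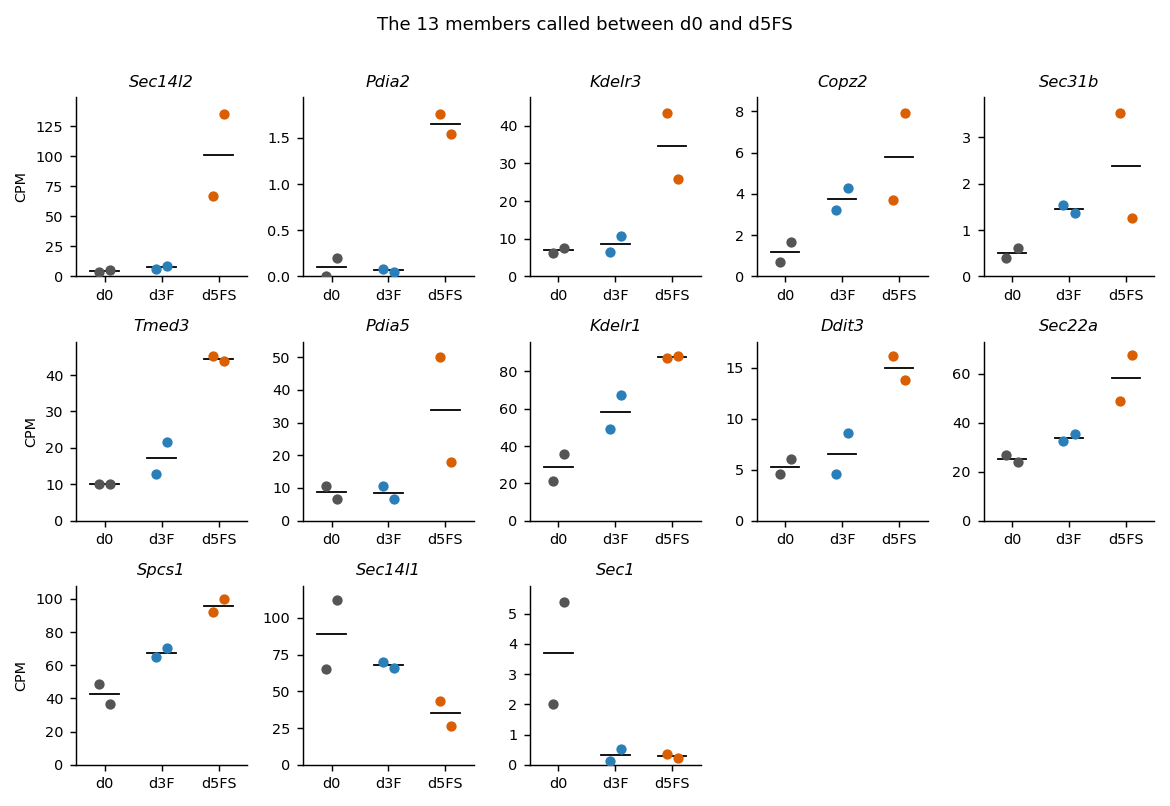
CPM of the 13 members called between d0 and d5FS in each of the 6 samples, ordered by log2 fold change. Points are samples, horizontal lines are means of 2 samples, and each panel has its own scale from 0. Kdelr1, Sec22a and Spcs1 were stepwise higher from d0 over d3F to d5FS, whereas d0 and d3F samples overlapped for Kdelr3 and Pdia5.

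Of the 5 signal peptidase genes Spcs1 was called, beside 12.4% of all genes called higher and 10.4% called lower. It measured 48.7 and 36.7 CPM in d0, 64.9 and 70.5 in d3F, then 92.3 and 99.6 in d5FS, without overlap between populations. The increase from d0 to d5FS was 2.25-fold (log2 fold change 1.17, SE 0.28, adjusted p = 0.0225, edgeR). Exons of Spcs1 share 16.3% of their bases with Glt8d1 on the opposite strand, which also rose (log2 fold change 1.86, from 8.33 and 5.38 CPM in d0 to 30.7 and 19.2 in d5FS). The catalytic subunit Sec11a had 0.65 (95% interval 0.01 to 1.30, adjusted p = 0.123, edgeR), and its paralogue Sec11c, the lowest of the group, had -0.08 (0.03 with plain library totals).

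Among the 8 SRP genes, the 6 translocon genes and the 4 TRAP genes, edgeR called 0 from d0 to d5FS. The shares of all genes were 12.4% called higher and 10.4% called lower. With an unadjusted p under 0.05 there were 1, 1 and 0 genes in these groups. The DESeq2 Wald test and DESeq2 against a log2 fold change of 1 called 0 of them, beside 4019 and 1035 of all genes. Sec61a1, the pore of the main translocon, measured 258 and 232 CPM in d0, 262 and 327 in d3F, followed by 218 and 292 in d5FS. Its populations overlapped, and the log2 fold change of 0.06 had a 95% interval of -0.63 to 0.75, so a change above 2-fold lay outside that interval. Sec61a1 held 84.1% and 86.6% of the TPM of the alpha pair in d0 and 81.3% and 88.4% in d5FS. Exons of its paralogue Sec61a2 share 19.9% of their bases with Nudt5 on the opposite strand. Nudt5 measured 87.8 to 133 CPM, and without strand information reads there cannot be told apart. Sec62, which serves post-translational entry, had the highest value of the translocon, 0.92 (adjusted p = 0.0662, edgeR), from 53.8 and 36.3 CPM in d0 to 96.9 and 73.9 in d5FS. Sec61g was the lowest at -0.20. Of the TRAP subunits Ssr4 had 0.67 (95% interval -0.11 to 1.45) and Ssr2 had -0.33 (95% interval -0.94 to 0.27). In the SRP the extremes were Srp54a at 0.68 and Srp19 at -0.69. The 3 neighbouring copies Srp54a, Srp54b and Srp54c are nearly identical and reads may be split among them with error. Their sum was 164 and 157 CPM in d0, 184.5 and 166 in d3F, then 209 and 216 in d5FS.

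The abundant ER chaperones were not called in any direction. Hspa5 (BiP), the main Hsp70 of the ER and a sensor of folding load, measured 666 and 667 CPM in d0, 879 and 725 in d3F, followed by 709 and 484 in d5FS. The d5FS samples lay on both sides of d0, and the log2 fold change was -0.16 (95% interval -0.89 to 0.58, adjusted p = 0.751, edgeR). Hsp90b1 (Grp94) measured 491 and 492 CPM in d0, 617 and 477 in d3F, then 442 and 299 in d5FS. Both d5FS samples were below d0, with a log2 fold change of -0.41 (95% interval -1.15 to 0.33, adjusted p = 0.386, edgeR). The lectin chaperones Canx and Calr had -0.27 (95% interval -1.10 to 0.56) and -0.03 (95% interval -0.83 to 0.77; the value was 0.09 with plain library totals). Together Hspa5, Calr, Canx and Hsp90b1 summed to 2545 and 2435 CPM in d0, 2818 and 2605 in d3F, followed by 2373 and 1950 in d5FS.

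The promoters of these 4 genes and of Pdia6 each hold the ER stress element (ERSE), CCAAT and CCACG separated by 9 bases, searched on both strands. It was present in 0.119% of the 32851 windows and in those of 5 of the 65 members in the table. A second element, ATTGG and CCACG separated by 1 base, was found in 0.037% of windows and in those of 0 members, which says only that these letters are not in these windows. The 5 genes with the ERSE were not called, beside 12.4% of all genes called higher and 10.4% called lower. Their log2 fold changes from d0 to d5FS ran from -0.41 (Hsp90b1) to -0.03 (Calr). The stretches around the matches are shown for every member that holds the element. Capitals mark both parts of the element, and in Calr and at the second match of Hsp90b1 they lie on the opposite strand. The matches begin 65 bases before the start site in Hspa5, 162 in Calr, 212 and 107 in Hsp90b1, 145 in Canx and 98 in Pdia6. The sequences are from RefSeq on GRCm38.p6, 5′ to 3′ on the strand of the gene:
Hspa5, + strand, chr2:34772010-34772058: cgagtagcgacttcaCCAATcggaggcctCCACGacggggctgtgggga
Calr, - strand, chr8:84847060-84847108: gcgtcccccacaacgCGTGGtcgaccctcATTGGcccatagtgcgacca
Hsp90b1, - strand, chr10:86705518-86705671: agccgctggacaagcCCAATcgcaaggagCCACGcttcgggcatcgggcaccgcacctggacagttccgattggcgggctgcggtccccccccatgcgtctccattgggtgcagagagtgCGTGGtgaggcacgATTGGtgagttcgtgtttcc
Canx, - strand, chr11:50325785-50325833: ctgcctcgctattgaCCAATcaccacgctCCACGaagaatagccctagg
Pdia6, + strand, chr12:17266476-17266524: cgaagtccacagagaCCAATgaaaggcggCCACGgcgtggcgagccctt

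Among the disulfide isomerases, Pdia6, Pdia4 and Pdia3, the abundant ones, were not called. Pdia4 measured 287 and 342 CPM in d0, 283 and 282 in d3F, then 190 and 177 in d5FS. Both d5FS samples were the lowest of the 6, and the log2 fold change of -0.78, the lowest of the folding group, gave an adjusted p of 0.075 (95% interval -1.41 to -0.14, edgeR). Pdia5 measured 10.6 and 6.71 CPM in d0, 10.6 and 6.62 in d3F, followed by 50.01 and 17.9 in d5FS. The d0 and d3F samples overlapped and both d5FS samples were higher. Pdia5 rose 3.93-fold from d0 to d5FS (log2 fold change 1.97, SE 0.53, adjusted p = 0.0318, edgeR), and the log2 value was 1.048 and not called without d5FS replicate 1. Its share of the TPM of the 5 Pdia genes was 1.49% and 0.845% in d0, 1.31% and 0.817% in d3F, then 6.5% and 3.30% in d5FS. Pdia2, a form known from the pancreas, was close to the detection limit, with 0 and 4 counts in d0, 2 and 1 in d3F, followed by 31 and 27 in d5FS, which are 1.76 and 1.55 CPM. It was called (log2 fold change 4.01, SE 1.01, adjusted p = 0.0258, edgeR), and it had only 0.241% and 0.301% of the Pdia TPM in d5FS. Without d0 replicate 1 the log2 value was 2.96 and not called, and without d0 replicate 2 the only d0 sample left had 0 counts.

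Of the unfolded protein response factors, Ddit3 (Chop), the transcription factor of the Perk branch, was called. It measured 4.56 and 6.04 CPM in d0, 4.59 and 8.59 in d3F, then 16.2 and 13.8 in d5FS. Both d5FS samples were above all 4 others, and Ddit3 rose 2.83-fold from d0 to d5FS (log2 fold change 1.499, SE 0.43, adjusted p = 0.0384, edgeR). Xbp1, the factor of the Ire1 branch, measured 33.8 and 52.2 CPM in d0, 61.6 and 62.2 in d3F, followed by 66.9 and 76.4 in d5FS. The populations did not overlap, but the log2 fold change of 0.74 (95% interval 0.03 to 1.44) was not called (adjusted p = 0.115, edgeR). The gene table cannot show how much Xbp1 transcript was spliced to the active form. Atf6, the membrane-bound sensor, had 0.60 (95% interval -0.19 to 1.39, adjusted p = 0.237, edgeR).

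**Figure D5:**
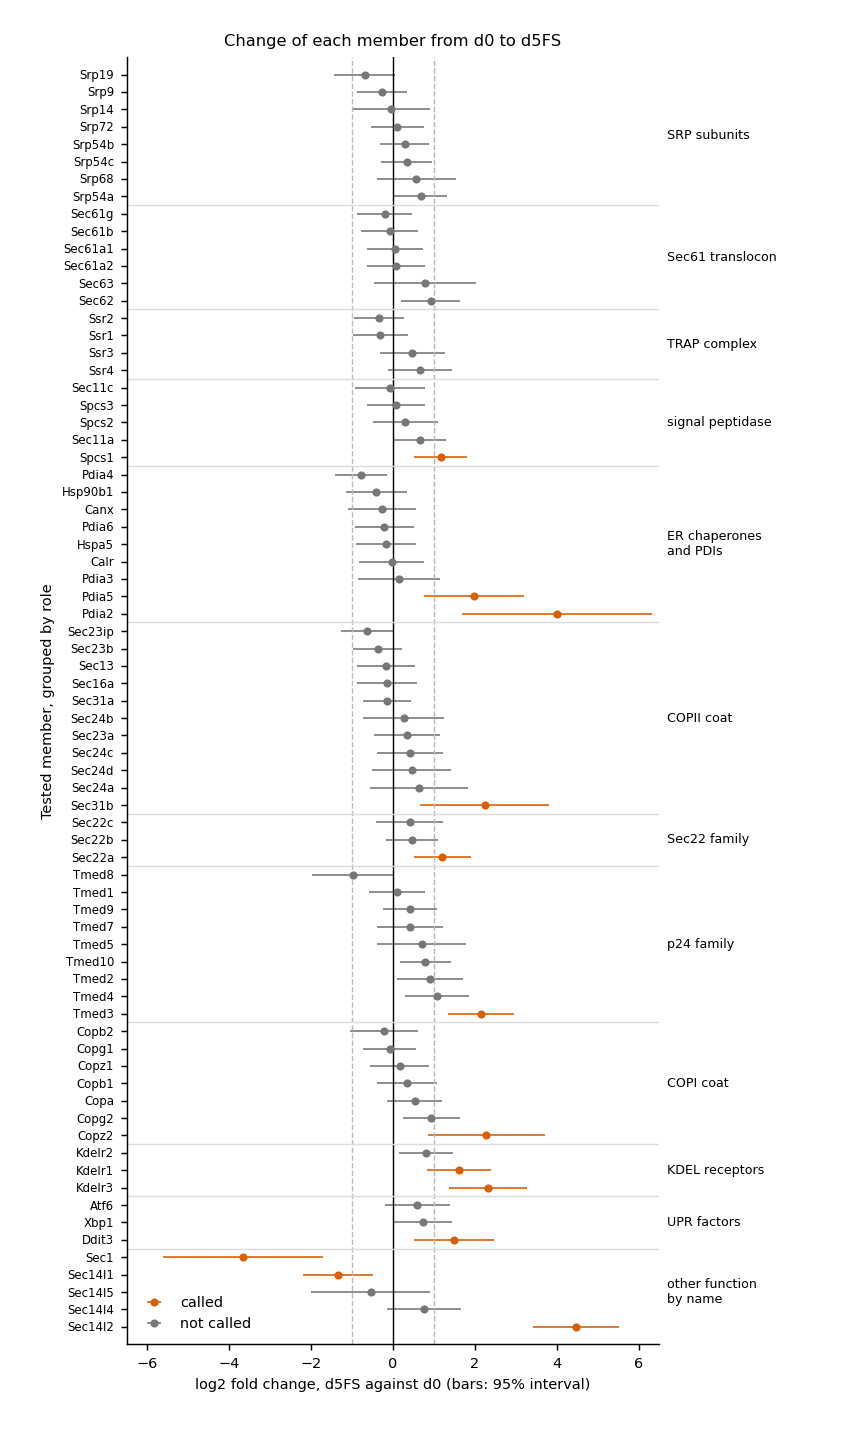
Log2 fold change from d0 to d5FS with its 95% interval for each of the 73 tested members, grouped by role. Orange members were called. Most intervals of translocon, SRP, chaperone and COPII genes include 0, and the intervals of Kdelr1, Kdelr3, Tmed3, Pdia5, Spcs1 and Sec22a lie above 0.

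The separate steps gave few calls. From d0 to d3F edgeR called 0 of 73 members, beside 2.8% of all genes called higher and 1.9% called lower. An unadjusted p under 0.05 was found for 6 members, the DESeq2 Wald test called 1 (Sec1), and DESeq2 against a log2 fold change of 1 called 0. The median log2 fold change of the members was 0.15 against -0.01 over all genes. With the replicate number as a block, Kdelr1 was called higher (log2 fold change 1.04, adjusted p = 0.0401, edgeR) and Sec1 lower (-3.57, adjusted p = 0.0288), beside 5.57% and 3.51% of all genes.

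From d3F to d5FS only Sec14l2 was called, higher, beside 1.08% of all genes called higher and 0.461% called lower. No pathway gene passed both thresholds in edgeR, while 6 of the 68 had an unadjusted p under 0.05 and the DESeq2 Wald test called 4 of them (Kdelr3, Pdia2, Pdia5, Tmed3). The median of the members was 0.11 against 0.01. With the block, Kdelr3 (log2 fold change 2.04, adjusted p = 0.0346), Pdia5 (1.86, adjusted p = 0.023) and Tmed3 (1.40, adjusted p = 0.037) were also called by edgeR, which makes 4 members higher and 0 lower, beside 3.27% and 3.04% of all genes. For the unadjusted p and the DESeq2 tests in these separate steps no share of all genes is given here. The comparisons share samples and their values are not independent of each other.

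Most calls depended on the test used or on single samples. DESeq2 against a log2 fold change of 1 left only Sec14l2 of the 13 members called from d0 to d5FS. Leaving out 1 sample at a time gave 2 to 9 calls, with 2 (Sec14l2, Tmed3) without d5FS replicate 1, 4 without d5FS replicate 2, 6 without d0 replicate 2, and 7 without either d3F replicate. Tmed3 and Sec14l2 were called in 6 of these 6 fits, Kdelr3 in 5, Pdia5 in 4, Kdelr1 and Sec1 in 3, Ddit3 in 2, Copz2, Pdia2, Spcs1 and Sec14l1 in 1, and Sec22a and Sec31b in 0. Same-numbered replicates deviated together. The study's sample list names 1 library per population mRNA and the other totRNA without saying which replicate, so library type and replicate cannot be told apart. In 23 of the 73 members replicate 1 was above replicate 2 in all 3 populations (Canx, for example), and in 16 replicate 2 was above replicate 1 (Calr, for example), beside 23.1% and 24.9% of all genes.

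Genes that work beside these members were taken from lists of partners, 154 of which were tested. From d0 to d5FS 12 were called higher and 3 lower by edgeR, beside 12.4% and 10.4% of all genes, so that both counts lay below those shares. With the block 20 and 5 were called, beside 15.9% and 13.6% of all genes. Of the other ER folding enzymes, the longest list, 7 of 36 were higher and 0 lower. Rcn3 and Rcn1, calcium-binding proteins of the ER lumen, and Serpinh1 (Hsp47), the collagen chaperone, had the strongest increases of the 7. Serpinh1 measured 108 and 80.1 CPM in d0, 340 and 656 in d3F, then 792 and 595 in d5FS, and rose 7.37-fold (log2 fold change 2.88, SE 0.42, adjusted p = 0.00422, edgeR). Rcn3 rose from 22.1 and 29.0 to 218 and 160 CPM (log2 fold change 2.88, adjusted p = 0.00336, edgeR) and Rcn1 from 51.8 and 44.2 to 279 and 172 CPM (2.23, adjusted p = 0.00469, edgeR). All d3F samples of these 3 genes were above d0. Collagen genes of the marker lists rose in the same comparison. On the log2 scale, Col4a1 and Col4a2 of the parietal endoderm list had 2.88 and 3.38. Col1a1, Col1a2 and Col3a1 of the feeder fibroblast list had 2.23, 6.06 and 4.15.

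Among 17 other genes of the unfolded protein response, Creb3l2 (log2 fold change 3.03, adjusted p = 0.00441, edgeR) and Creb3l1 (2.36, adjusted p = 0.0268, edgeR), membrane-bound transcription factors related to Atf6, were called higher, from 1.27 and 1.69 CPM in d0 to 13.1 and 11.1 in d5FS and from 2.76 and 0.768 to 9.70 and 8.65. With the block 5 were higher and 1 lower. Without it, Eif2ak3 (Perk) had -0.20, Atf4 0.06, Chac1 1.59 and Atf3 1.58, none of them called by edgeR. The DESeq2 Wald test called 6 of the 17, with Chac1 and Atf3 among them. Of 26 COPI partners and Golgi tethers, Arfgap3, an activator of the Arf GTPase cycle, rose (1.79, adjusted p = 0.0102, edgeR), as did the Golgi SNARE Stx5a (1.20, adjusted p = 0.0229, edgeR), and the tether subunit Zw10 fell (-1.48, adjusted p = 0.0217, edgeR). The SRP receptor subunit Srpr (-1.10, adjusted p = 0.0413, edgeR) and Wrb, part of the tail-anchor insertion receptor (-1.58, adjusted p = 0.0102, edgeR), fell, from lists of 5 and 16 genes. With the block Emc8, a subunit of the ER membrane protein complex in the list of Wrb, was also called lower (log2 fold change -1.25 without the block, adjusted p = 0.0067 with it, edgeR). Of 12 oligosaccharyltransferase genes and 21 COPII partners edgeR called 0, and with the block 0 and 2 (Lman2l and Bcap29, adjusted p = 0.0276 and 0.0426). An unadjusted p under 0.05 was found for 2 and 6 of them, and the DESeq2 Wald test called 0 and 1 (Lman2l). Without 1 sample at a time, Serpinh1, Rcn1, Rcn3 and Creb3l2 were called in 6 of 6 fits, Arfgap3 and Wrb in 5, Zw10 in 4, Creb3l1 in 3, Stx5a in 2 and Srpr in 1.

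The genes matched by symbol alone had the widest range. Sec14l2, a lipid-binding protein, measured 4.08 and 5.02 CPM in d0, 6.49 and 9.04 in d3F, followed by 67.0 and 135 in d5FS. Both d5FS samples were far above the other 4, and Sec14l2 rose 22.2-fold from d0 to d5FS (log2 fold change 4.47, SE 0.46, adjusted p = 0.00173, edgeR) and from d3F to d5FS by 3.70 on the log2 scale (adjusted p = 0.0138, edgeR). The latter ran from 3.11 to 4.11 without 1 sample at a time. It was not called without d3F replicate 1 or without d5FS replicate 2. Sec14l1 fell from 65.5 and 112 CPM in d0 to 43.2 and 26.6 in d5FS (log2 fold change -1.34, SE 0.37, adjusted p = 0.0337, edgeR), with 70.1 and 66.1 in d3F. Sec1 fell from 2.02 and 5.38 CPM in d0 to 0.122 and 0.505 in d3F and 0.340 and 0.229 in d5FS (log2 fold change -3.67, SE 0.85, adjusted p = 0.0194, edgeR, d0 to d5FS). Without d0 replicate 2 the value was -2.79 and not called. Its exons share 21% of their bases with Ntn5 on the opposite strand, which had at most 0.717 CPM.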

How the data were processed

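RNA-seq of sorted d0, d3F and d5FS cells was used, with 2 biological replicates each. According to the Methods, the authors depleted total RNA of ribosomal RNA, prepared libraries with a kit that keeps no strand, sequenced paired ends, aligned the reads to mm10 with STAR and quantified genes with RSEM. Their versions were not given in the sources used here. The study's sample list names 1 library per population mRNA and the other totRNA without saying which replicate it is. The authors deposited raw expected counts, which RSEM estimates for each gene. They also deposited TPM, scaled by RSEM for transcript length and used here only for shares within families and for classes of level. FPKM was not used.

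Members and gene lists were chosen with earlier results of these data known. Counts were rounded. With edgeR 4.0.16 (limma 3.58.1, R 4.3.3), genes were kept by filterByExpr, scaled by TMM (factors 0.8772 to 1.0822), and fitted with a mean per population in glmQLFit and glmQLFTest (prior count 0.125, 3 residual degrees of freedom). Adjusted p-values are Benjamini-Hochberg over 14539 genes. Genes were called at an adjusted p under 0.05 and a log2 fold change beyond 1. Standard errors follow from the log2 fold change and the F statistic, and 95% intervals use the t distribution of the fit. With 2 against 2 samples an exact permutation test cannot give a p below 0.333 and was not run. Replicate numbers come from the labels. The deviations of same-numbered samples correlated at 0.314, 0.324 and 0.278 across genes, so the replicate number was also fitted as a block. Named were all called members, the chaperones, KDEL receptors, stress factors and Sec61a1, the highest and lowest member of each role, the paralogues, and up to 3 called genes per partner list, except that the result of 1 list is not reported here. Also named were Tmed2, Tmed4, Tmed10, Pdia3, Pdia4, Sec62, Emc8, Lman2l, Bcap29, Eif2ak3, Atf4, Chac1 and Atf3. These genes and the classes of level were chosen after their values were seen.

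Alternatives were RLE size factors, plain library totals, DESeq2 1.42.0 (Wald test, also with a threshold at a log2 fold change of 1), omission of the filter, at least 10 counts in every sample, no fold threshold, only the groups compared, the block, and leaving out each sample. Gene positions and exon overlaps are from GENCODE M21 on mm10, and promoters from RefSeq on GRCm38.p6; 65 members had a window, and the last 25 bases of 64 of their 70 windows lay in a transcript of the gene. Python 3.11.15, numpy 2.4.6, pandas 2.3.3 and matplotlib 3.10.9 were used.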

Additional observations from a re-analysis of the deposited data

How the results depend on the processing

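The number of members called from d0 to d5FS was 13 and stayed within 10 to 14 under size factors, plain totals, filters, the fit of only 2 groups, the DESeq2 Wald test and the block, but was 1 with DESeq2 against a log2 fold change of 1 and 2 to 9 without 1 sample at a time. From d0 to d3F the count of 0 became 1 with the DESeq2 Wald test or RLE size factors, 2 without a filter or with the block, and 0 to 1 without 1 sample. From d3F to d5FS the count of 1 became 5 with the DESeq2 Wald test or without a filter, 3 with only the 2 groups, 4 with the block, and 0 to 3 without 1 sample. Among members the block changed no call other than those given beside the results (Kdelr1 and Sec1 from d0 to d3F, Kdelr3, Pdia5 and Tmed3 from d3F to d5FS, Tmed4 from d0 to d5FS). The median log2 fold change of the members was 0.14 to 0.23, 0.014 to 0.183 and 0.19 to 0.44 in the same 3 comparisons without 1 sample, and 0.45 from d0 to d5FS with plain library totals. Uncalled values changed sign, among members described: with plain totals Calr was 0.085 and Sec11c 0.027, and without 1 sample at a time Calr ran from -0.361 to 0.236, Canx from -0.683 to 0.060, Copb2 from -0.546 to 0.193, Copz1 from -0.231 to 0.472, Hspa5 from -0.465 to 0.101, Pdia3 from -0.497 to 0.601, Pdia6 from -0.463 to 0.095, Sec11c from -0.346 to 0.152, Sec24a from -0.230 to 1.258, Sec61a1 from -0.160 to 0.252 and Sec61g from -0.455 to 0.013. The cause was not tested. A fit that leaves 1 sample in a population assumes that it varies like the others. Depth limits the statements on Pdia2, Sec31b, Copz2 and Sec1, whose counts were at most 138 in any sample.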
